A study of Mus musculus with 908 samples.

Results

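Keratinocytes sorted as CD44+ were compared with keratinocytes sorted as CD44-negative, all from mouse skin squamous cell carcinoma and labelled as taken before immunotherapy. Both gates took cells with integrin α6, the laminin receptor subunit of basal keratinocytes, and without CD34 and the mCherry reporter, so the sort markers given for them differ in CD44 alone. TPM is a length-normalised share of a library's transcripts. A library was a member when 2000 or more genes, Dsp among them, reached a TPM of 1, the level called detected here, and Col3a1 was under 10. Dsp encodes desmoplakin, which anchors keratin filaments at desmosomes, and Col3a1 a fibrillar collagen of stromal cells. The rule gave 100 cells, in a series of 908 libraries. The CD44+ gate held 11 cells from 12 libraries, because wells H2 and H10 had profiles alike enough to count as 1 cell (r = 0.941), and the CD44-negative gate held 89 cells.

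Single tumour cells, 1 per well, were sequenced by the full-length Smart-seq2 method, from tumours before or after adoptive transfer, an immunotherapy with infused immune cells. All cells described here carry the strain name TRE-HrasG12V;SBE-mCherry-PGK-rtTA3, are given as P60 to P90 and of mixed sex, and are labelled as taken before transfer, a label that other libraries put in doubt for the CD44+ cells. In that name, TRE is a tetracycline-responsive promoter driving activated Hras, SBE a SMAD-binding element placing mCherry under TGF-beta signalling, and PGK a general promoter driving the rtTA3 activator. Both gates also excluded CD45, CD117, CD140a and CD31, surface proteins of leukocytes, mast cells or melanocytes, fibroblasts and endothelium. No label names an animal or says that wells share one, so each gate counted as 1 sample, and no test or standard error between gates was computed. Differences below describe these 100 cells.

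CD44 is a surface glycoprotein that binds hyaluronan, and squamous carcinomas are often sorted on it together with integrin α6. Basal keratinocytes attach to the basement membrane and express Krt5 and Krt14. As they leave it they switch to Krt1 and Krt10 and then make the cornified envelope. Krt6, Krt16, Krt17 and the S100a8/S100a9 pair are induced in wounded or inflamed epidermis. Interferons act through receptor-bound JAK kinases to induce antiviral genes and antigen presentation on MHC class I. Immediate early genes such as Fos, Jun and Atf3 are transcribed within minutes of a stimulus without new protein synthesis.

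The libraries of the gates were of like size in the median. Members had 5112 to 8265 genes at a TPM of at least 1 in the CD44+ gate (median 6971.5) and 2903 to 8297 in the CD44-negative gate (median 6810), and ERCC spike-in RNA took medians of 0.576% and 0.435% of TPM. The CD44+ libraries of wells G1, G7 and G10 had the fewest genes, 5112, 5239 and 5433. ERCC took 2.58% in well G7 and 1.38% in well G10, above the highest CD44-negative member at 1.33%. Of 24 wells of the CD44+ plate, 9 had fewer than 2000 genes and 3 others failed the marker rule, against 5 and 2 of 96 in the CD44-negative gate. The lowest Dsp among members was 13.5 TPM in the CD44+ gate and 29.9 in the CD44-negative gate, and the highest Col3a1 was 0 and 6.25. The nearest libraries left out were 1 of the CD44-negative gate with Col3a1 at 14.4 and 1 of the CD44+ gate with Dsp at 0 and Col3a1 at 20.9.

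A caution on the source of the cells applies to every value. Each of the 15 CD44+ libraries with at least 2000 genes had a second library of the same well name and a matching profile on a plate labelled as sorted after transfer (r from 0.858 to 0.955, median 0.946). No CD44-negative library had such a partner among the libraries searched, which did not cover 5 of the plates labelled after transfer. Which label holds for the CD44+ cells is not settled by the files, and gate, plate and any batch of sorting cannot be told apart.

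The CD44-negative gate held cells of 2 kinds, set apart by plate position. On its plate rows A to D, 42 of 45 cells had Xist, the transcript that silences an X chromosome, at a TPM of at least 1 without Y-linked transcripts, and 0 had Y-linked transcripts alone. On rows E to H, 43 of 44 had Y-linked transcripts (Ddx3y, Eif2s3y, Kdm5d or Uty) and 0 had Xist alone. Among the CD44+ libraries 9 had Xist alone, 2 had Xist with Kdm5d or Uty at 2.34 or 2.27 TPM, 1 had neither and 0 had Y-linked transcripts alone. The main gene lists and leading genes are therefore compared with all 89 CD44-negative cells, with the 42 with Xist and with the 43 with Y-linked transcripts. Where only 1 comparison is printed, it is with all 89. Differences between these last groups show how far cells of one gate lay apart.

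The keratinocyte label was checked in both gates on keratin genes that the rule did not use. Krt14 was at a TPM of at least 1 in 11 of 11 and 89 of 89 cells, with 415.7 to 9458 TPM (median 5421) in the CD44+ and 75.5 to 13652 (median 7122) in the CD44-negative cells. Krt5 had medians of 1193 and 1769 TPM. The sum of 12 keratinocyte markers, which include the rule gene Dsp, ran from 1462 to 17691 TPM in the CD44+ cells and from 3885 to 27967 in the others. Of the defining markers of other cell types, those of T or NK cells were at 0 in every CD44+ cell for 9 of 10 genes, those of macrophages or dendritic cells for 9 of 10 and those of mast cells for 6 of 6. The same held for 7 of 10 endothelial genes, 5 of 8 melanocyte or Schwann cell genes, whose sum reached 26.4 TPM against 10.6 in the CD44-negative cells, and 1 of 6 sebocyte genes. Summed sebocyte markers had medians of 61.2 and 70.3 TPM, with Mgst1 detected in 9 of 11 and 74 of 89 cells. Summed fibroblast markers, which include the rule gene Col3a1, had medians of 42.3 and 33.4 TPM, most of it Fbln1, and summed pericyte or muscle markers of 14.99 and 11.8.

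3 CD44+ cells stood apart. The cell of well G7 had the lowest keratinocyte sum, 1462 TPM, and that of well G10 the next, 2876, with Cd44 at 2.47 TPM. Their median r to the CD44-negative cells was 0.538 and 0.596. In the CD44+ libraries of wells G3, G6 and H1, which failed the marker rule, it was 0.618, 0.611 and 0.614. The cause of these low values was not tested. The melanocyte gene Mitf was at 9.75 TPM in well G10, and at 16.5 in well G11 and 2.36 in well G7. The cell of well H8 was the one with neither Xist nor Y-linked transcripts, and held Vim, an intermediate filament gene of mesenchymal cells, at 97.6 TPM while the other 10 CD44+ cells were at 0. List medians that change sign without these cells, and printed folds of named genes that move by over 1.5 times without their strongest cell, are given both ways.

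Transcripts of the sort markers did not separate the gates as the antibodies did. Cd44 ran from 2.47 to 164.8 TPM in the CD44+ cells (median 71.3) and from 28.6 to 604.9 in the CD44-negative cells (median 131.2), and it was at a TPM of at least 1 in all 11 and all 89. The ranges overlapped, and the mean was lower in the CD44+ gate, 75.3 against 138.6 TPM, a log2 fold of -0.87 (-0.72 with the second libraries). The mean was 136.5 in the CD44-negative cells with Xist and 141.2 in those with Y-linked transcripts, so both parts of the gate stood alike. Itga6 averaged 28.4 against 45.98 TPM (log2 fold -0.67), with 10 of 11 and 85 of 89 cells at a TPM of at least 1. Cd34, excluded at the surface in both gates, was at a TPM of at least 1 in 0 of 11 cells (exact 95% binomial interval 0 to 28.5%) and 10 of 89 (11.2%, 5.52 to 19.7%). Such intervals cover the counting of cells only.

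Genes whose products work with CD44 were not set apart from other genes by their counts. Of 20 considered, 1 was at least 2-fold higher and 3 lower, with a median log2 fold of -0.31. Of all genes considered, 11.8% were higher and 8.93% lower by the same rule. Has3, a hyaluronan synthase, averaged 15.7 against 42.02 TPM (log2 fold -1.36, and -2.18 without the cell of wells H2 and H10) and was detected in 4 of 11 and 63 of 89 cells. Nf2, which encodes the cytoskeletal linker merlin, averaged 9.64 against 23.8 TPM (log2 fold -1.22).

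Folds divide the mean TPM of the gates after adding 1 to each, which shrinks the differences of weak genes, and a few strong cells can set them. A gene was called higher or lower when the fold was at least 2 and the difference in mean log2(TPM + 1) at least 1 in the same direction. Of 11992 genes with a mean TPM of at least 1 in a gate, 2.65% were higher in the CD44+ gate and 1.92% lower. Of the higher genes, 80.5% were also 2-fold higher than in the CD44-negative cells with Xist, 95% than in those with Y-linked transcripts and 75.5% than in both. For the lower genes these shares were 83%, 89.1% and 72.6%. By fold alone, the rule used for the gene lists below, 11.8% of genes were higher and 8.93% lower than in all CD44-negative cells, 12.7% and 8.66% against those with Xist, and 9.31% and 4.26% against both parts at once. Against those with Y-linked transcripts 1760 of the 11992 genes were higher and 1036 lower, beside 1420 and 1071 against all CD44-negative cells. The median log2 fold of all genes was -0.01. The gene lists were chosen with results of these data known, so their counts are descriptions.

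The 15 genes with the largest differences toward the CD44+ gate fell into few groups. They were the interferon-induced genes Ifi27l2a, Oasl2 and Lgals3bp, the MHC class I genes H2-Q5, H2-Q6 and H2-Q7, the immediate early genes Atf3, Nr4a1, Zfp36, Fosb, Fos and Dusp1, the chemokine genes Ccl27a and Ccl8, and Clca3a2, of the CLCA family. Of the 15, 11 were at least 2-fold higher than each part of the CD44-negative gate. In 12 of them the CD44-negative cells with Xist were themselves at least 2-fold higher than those with Y-linked transcripts. With any 1 CD44+ cell left out, 11 of the 15 stayed at least 2-fold higher and Ccl8, Clca3a2, Fos and Nr4a1 did not.

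**Figure D1:**
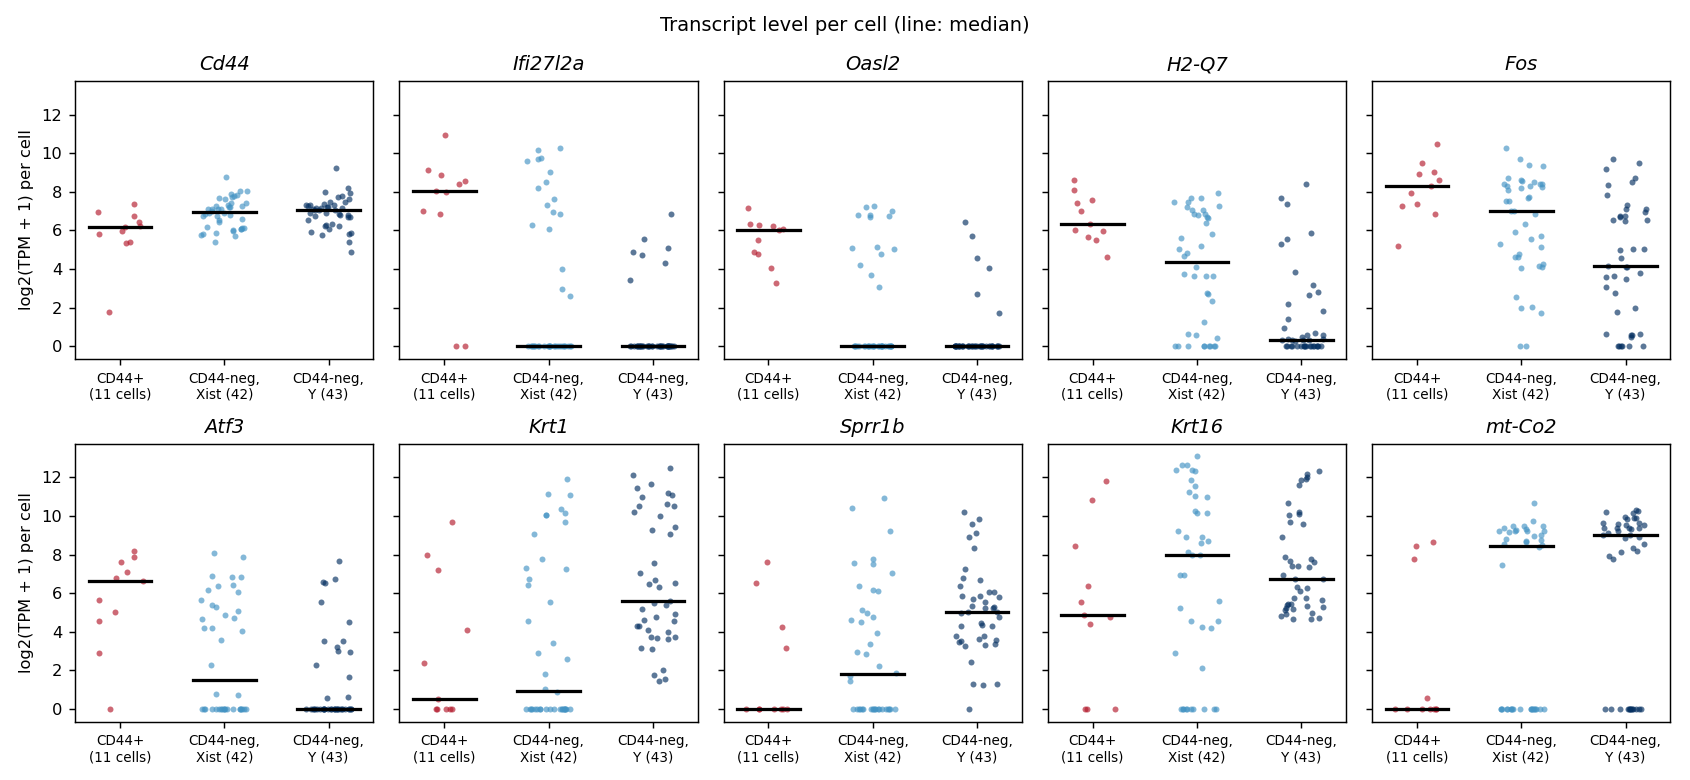
log2(TPM + 1) of 10 genes per cell in 11 CD44+ cells, 42 CD44-negative cells with Xist and 43 with Y-linked transcripts; points are cells, spread sideways at random, and lines are medians. Oasl2 and H2-Q7 were detected in all 11 CD44+ cells, while Cd44 itself was no higher there and mt-Co2 split into cells at 0 and cells well above.

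Of 32 interferon-response genes considered (35 listed), 20 were at least 2-fold higher in the CD44+ gate and 0 lower, with a median log2 fold of 1.19. Against the CD44-negative cells with Xist the median was 0.72 (10 higher, 1 lower), against those with Y-linked transcripts 2.02 (26 higher, 0 lower), and 8 genes were higher than both. Within the CD44-negative gate, cells with Xist had a median of 1.45 over cells with Y-linked transcripts. The difference within that gate was thus of the size of the difference between gates.

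Ifi27l2a, an interferon-induced membrane protein gene at chr12:103442167-103443680 (mm10), ran from 0 to 1981 TPM in the CD44+ cells (median 259.9), and 9 of 11 were at a TPM of at least 1. In the CD44-negative gate both medians were 0, with a highest cell of 1234 among those with Xist and 115.3 among those with Y-linked transcripts. The groups overlapped, but only 8 of 89 CD44-negative cells passed the CD44+ median. Means were 407.5 against 81.03 TPM, a log2 fold of 2.32, which was 1.33 against the cells with Xist, 5.77 against those with Y-linked transcripts and 1.61 without the cell of well G1. Oasl2, an oligoadenylate synthetase-like gene at chr5:114896936-114912234, ran from 8.58 to 140.1 TPM in the CD44+ cells (median 63.8), and none was at 0. It was detected in 11 of 11 cells (exact 95% interval 71.5 to 100%) against 21 of 89 (23.6%, 15.2 to 33.8%), 14 of them with Xist and 6 with Y-linked transcripts. The log2 fold was 1.98 and the log2 fold against the cells with Xist 1.18.

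Lgals3bp, which encodes a secreted galectin-binding protein, averaged 57.8 against 16.9 TPM, with 30.3 in the CD44-negative cells with Xist and 3.90 in those with Y-linked transcripts. Irgm1, an interferon-inducible GTPase, averaged 34.6 against 8.06 TPM (log2 fold 1.97, and 1.31 without the cell of well H8). Xaf1, a pro-apoptotic interferon target, averaged 20.2 against 5.96 and Rtp4, a chaperone of receptors, 16.3 against 4.46 TPM. Upstream components differed less than response genes against all CD44-negative cells, but about as much against the cells with Xist. Of 11 genes for interferon receptors, JAK kinases and their SOCS inhibitors, 4 were at least 2-fold higher and 0 lower, with a median of 0.71. Against the cells with Xist it was 0.60 (3 higher, 1 lower), beside 0.72 for the response genes. Against those with Y-linked transcripts it was 0.70 (4 higher, 1 lower), beside 2.02. The median against all CD44-negative cells was -0.28 among libraries of 6000 to 8000 genes and -0.08 without wells G7, G10 and H8. Socs3, a feedback inhibitor, averaged 57.8 against 25.6 TPM and was detected in 11 of 11 cells, while Jak1 averaged 20.6 against 33.6.

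Taken as a level per cell, the mean log2(TPM + 1) of the interferon list ran from 2.16 to 3.59 in the CD44+ cells (median 3.13). It ran from 0 to 4.60 in the CD44-negative cells with Xist (median 1.52) and from 0.26 to 4.54 in those with Y-linked transcripts (median 0.79). All 11 CD44+ cells thus lay in a narrow upper band. Of the CD44-negative cells, 27 of 42 with Xist and 40 of 43 with Y-linked transcripts lay below the lowest CD44+ cell, and 6 and 1 lay above the highest. Without wells G7, G10 and H8 the list's median log2 fold was 1.08.

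**Figure D2:**
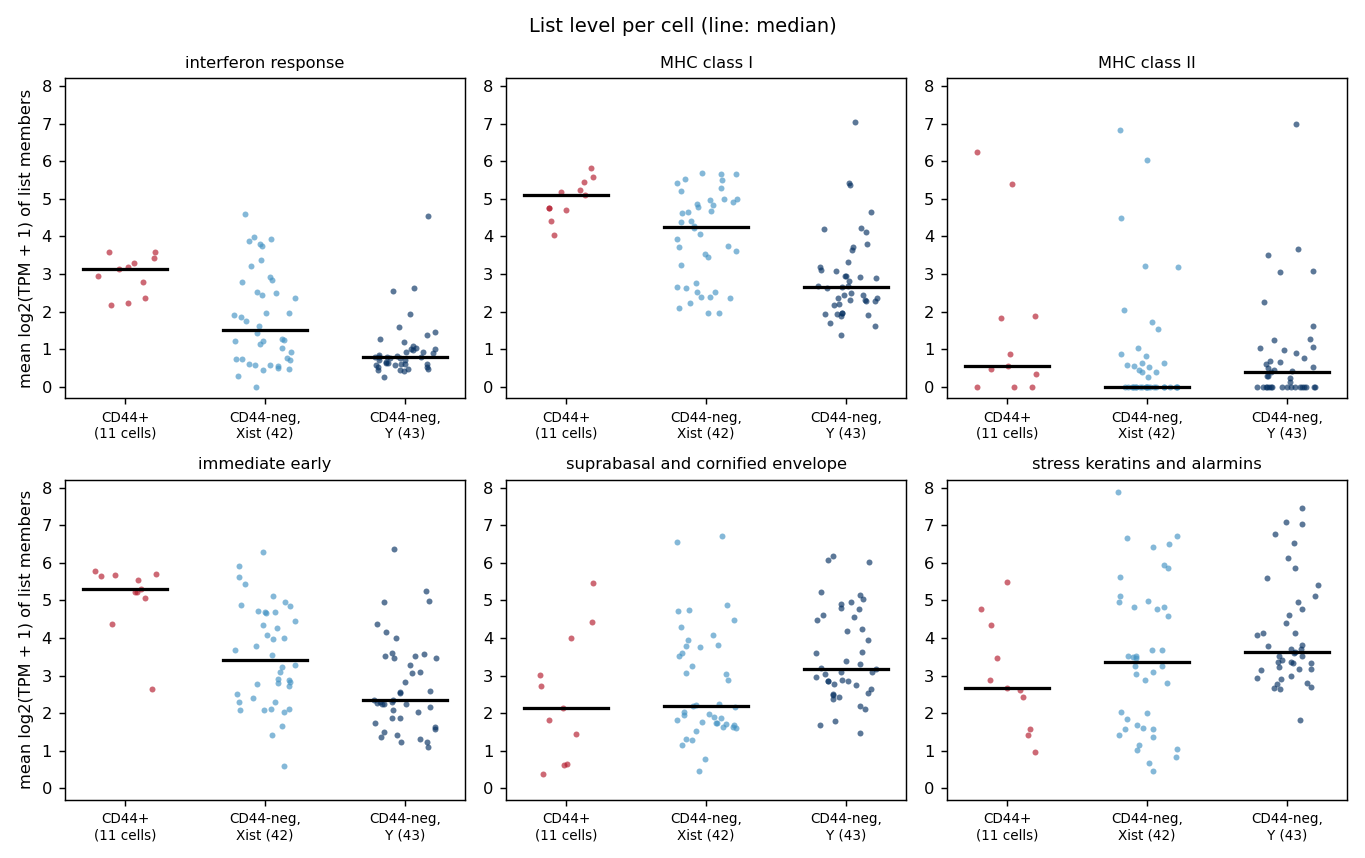
Mean log2(TPM + 1) over the members of 6 gene lists in each cell, for 11 CD44+ cells, 42 CD44-negative cells with Xist and 43 with Y-linked transcripts; points are cells and lines are medians. The interferon levels of the CD44+ cells sit between 2.16 and 3.59, and the MHC class II levels split into many cells near 0 and a few above 4.

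Genes of MHC class I presentation showed the same order of groups. Of 18 considered, 5 were at least 2-fold higher and 0 lower, with a median log2 fold of 0.74 (0.54 against cells with Xist, 1.29 against those with Y-linked transcripts). B2m, the class I light chain, ran from 217.1 to 1591 TPM in the CD44+ cells (median 736.2), from 0 to 1346 in all CD44-negative cells, with medians of 438.9 in those with Xist and 79.9 in those with Y-linked transcripts. The ranges overlapped, and 11 of 89 CD44-negative cells passed the CD44+ median. Its log2 fold was 1.34, of which 0.81 remained against the cells with Xist. The immunoproteasome subunit Psmb9 averaged 21.2 against 7.36 TPM. H2-Q7, a non-classical class I gene at chr17:35439155-35443773, was detected in 11 of 11 cells (lowest 23.9, median 79.4 TPM) and in 45 of 89, with means of 133.4 and 43.5 TPM. H2-Q6 averaged 63.6 against 12.4 and H2-Q5, annotated as a polymorphic pseudogene, 86.2 against 12.2 TPM. The log2 fold of H2-Q5, 2.73, was 2.05 without the cell of well G7 and 1.47 without wells G7, G10 and H8. The H2-Q genes are near-identical copies, so how reads were shared among them is uncertain.

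Promoters of these groups were searched for the interferon-stimulated response element, the letters GAAANNGAAA on either strand, from 250 bases before to 50 after each RefSeq start (GRCm38.p6). Of 27025 genes with a promoter in the table, 3.99% held it, as did 3.65% of the 8197 genes considered here, 16 of 26 interferon-response genes (61.5%) and 4 of 16 class I genes (25%). Holders did not differ more between the gates than others. Of the interferon genes considered, 7 of 14 holders were at least 2-fold higher, with a median log2 fold of 1.0, and 6 of 9 without it, with a median of 1.60. Among the class I genes the medians were 0.57 in 4 holders and 0.82 in 12 others. The promoters of Oasl2, Lgals3bp and Xaf1 do not hold these letters in the window. Those of Irgm1 (chr11:48871371-48871670, minus strand) and B2m (chr2:122147437-122147736, plus strand) do, and are shown 5′ to 3′ as the members of both lists described above that carry the element, in capitals. In Irgm1 it occurs in 2 overlapping copies.
Irgm1: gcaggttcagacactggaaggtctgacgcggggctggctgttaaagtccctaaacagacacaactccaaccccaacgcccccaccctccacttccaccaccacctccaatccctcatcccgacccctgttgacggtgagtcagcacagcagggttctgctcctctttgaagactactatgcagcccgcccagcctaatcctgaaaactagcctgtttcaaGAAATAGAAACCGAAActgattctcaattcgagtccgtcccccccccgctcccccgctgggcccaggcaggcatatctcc
B2m: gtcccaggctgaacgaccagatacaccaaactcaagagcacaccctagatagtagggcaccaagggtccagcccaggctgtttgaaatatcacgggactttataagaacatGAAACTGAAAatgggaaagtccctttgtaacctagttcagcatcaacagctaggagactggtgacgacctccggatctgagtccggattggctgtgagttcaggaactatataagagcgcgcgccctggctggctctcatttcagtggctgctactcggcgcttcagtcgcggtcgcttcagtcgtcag

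MHC class II genes were few and rested on few cells. Of 6 considered, 4 were at least 2-fold higher and 1 lower, with a median of 1.23. Cd74, the class II invariant chain, averaged 118.8 against 38.4 TPM, but 7 of the 11 CD44+ cells were at 0 and wells G10 and G7 held 729 and 490.8 TPM. Its log2 fold of 1.60 was 0.58 without well G10. H2-Aa was at 440 TPM in well G7 and 260.5 in well G10 and at 0 in the other 9. H2-Ab1 was detected in 7 of 11 cells and 25 of 89, and its log2 fold of 1.44 was 0.20 without the cell of well G7. The list's median was 0.34 without well G7 and -1.61 without wells G7, G10 and H8. Summed macrophage or dendritic markers were at 0 in both G7 and G10.

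Immediate early genes had the highest list median, 1.28, with 14 of 20 considered at least 2-fold higher and 0 lower. The median was 1.02 against the cells with Xist and 1.78 against those with Y-linked transcripts, and 10 genes were 2-fold higher than both. Cells with Xist had a median of 0.68 over cells with Y-linked transcripts. Without wells G7, G10 and H8 the median was 1.30, so it did not rest on them.

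The AP-1 subunit gene Fos, at chr12:85473890-85477273, ran from 36.3 to 1404 TPM in the CD44+ cells (median 317.9), with medians of 127.7 in CD44-negative cells with Xist and 17.2 in those with Y-linked transcripts. Its mean was 414.5 against 159.1 TPM, and 17 of 89 CD44-negative cells passed the CD44+ median. Fosb, its relative, averaged 63.98 against 12.2 TPM (log2 fold 2.30), and 3 of 89 CD44-negative cells passed the CD44+ median of 52.4. Atf3, a stress-induced transcription factor gene at chr1:191170296-191218039, was detected in 10 of 11 CD44+ cells (90.9%, exact 95% interval 58.7 to 99.8%) and 36 of 89 others (40.4%, 30.2 to 51.4%). Its CD44+ median was 97.97 TPM, against 2.28 in cells with Xist and 0 in those with Y-linked transcripts, and its log2 fold 2.12.

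Zfp36, which encodes an mRNA-decay factor, averaged 136.3 against 36.99 TPM and Dusp1, a MAP kinase phosphatase, 284.7 against 113.5. The orphan nuclear receptor gene Nr4a1 averaged 44.7 against 19.2 TPM, but the cells with Xist averaged 33.6, for a log2 fold of 0.40 against them, and those with Y-linked transcripts 4.98. Feedback targets of ERK signalling did not follow as a group. Of 11 considered, 2 were higher and 2 lower, with a median of 0.32 that was -0.45 without wells G7, G10 and H8. Hbegf, an EGF receptor ligand, averaged 28.8 against 11.2 TPM and was detected in 11 of 11 cells, while the ETS factors Etv5 and Etv4 averaged 1.84 against 7.57 and 1.41 against 5.11. The log2 fold of Etv5, -1.60, was -2.51 without the cell of well H8.

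In the level per cell, the immediate early list ran from 2.65 to 5.79 in the CD44+ cells (median 5.30). Medians were 3.41 in the cells with Xist and 2.35 in those with Y-linked transcripts. Only 4 of 42 and 1 of 43 of these passed the CD44+ median, and 12 and 26 lay below the lowest CD44+ cell. Heat shock genes, another group that responds to stress, had a median of -0.07, with 1 of 12 higher. That gene was Dnajb1, a co-chaperone, at 121.4 against 49.9 TPM, with a log2 fold of 1.27 that was 0.60 without the cell of well G2.

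The CArG box, bound by serum response factor, was searched for in the same windows on both strands. It was found in 1.81% of the 27025 genes, in 1.54% of the 8197 considered, and in 2 of 14 immediate early genes with a promoter (14.3%), Zfp36 and Egr2. Both were at least 2-fold higher, as were 10 of the 12 others. Egr2, a zinc-finger factor outside the naming rule and shown because of this match, averaged 48.2 against 10.2 TPM. The promoters of Zfp36 (chr7:28379179-28379478, minus strand) and Egr2 (chr10:67537619-67537918, plus strand) follow 5′ to 3′, with the box in capitals. The searched pattern is its own reverse complement, so each match counts as a box on both strands. The letters of the Egr2 match are palindromic and those of the Zfp36 match are not.
Zfp36: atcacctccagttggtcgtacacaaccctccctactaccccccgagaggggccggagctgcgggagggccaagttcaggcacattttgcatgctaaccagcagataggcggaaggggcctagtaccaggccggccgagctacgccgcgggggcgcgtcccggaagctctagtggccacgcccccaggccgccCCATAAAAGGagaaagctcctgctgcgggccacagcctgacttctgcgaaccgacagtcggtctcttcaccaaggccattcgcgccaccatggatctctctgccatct
Egr2: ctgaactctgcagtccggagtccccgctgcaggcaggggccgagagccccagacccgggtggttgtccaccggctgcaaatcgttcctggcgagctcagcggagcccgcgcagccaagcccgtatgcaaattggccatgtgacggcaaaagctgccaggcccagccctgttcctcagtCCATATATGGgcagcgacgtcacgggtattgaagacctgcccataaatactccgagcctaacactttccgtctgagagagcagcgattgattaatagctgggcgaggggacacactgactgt

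Epithelial chemokine genes were higher in part. Of 11 chemokine and cytokine genes considered, 4 were at least 2-fold higher and 1 lower, with a median of 0.27 that was -0.21 without wells G7, G10 and H8. Ccl27a, a skin chemokine that draws CCR10+ T cells, ran from 0 to 1545 TPM (median 46.7) against a median of 0, averaged 360.3 against 90.1 TPM and was detected in 9 of 11 against 41 of 89 cells. Its log2 fold of 1.99 was 1.41 without the cell of well G7, 1.13 without wells G7, G10 and H8, and 1.88 against the cells with Xist. Cxcl16, a membrane-bound chemokine, was detected in 11 of 11 and 65 of 89 cells at means of 32.5 and 15.4 TPM. Ccl8 averaged 75.2 against 29.3 TPM and was detected in 7 and 21 cells, with a log2 fold of 1.33 that was 0.74 without the cell of well G5. Cxcl10, with the largest fold of the list, was at 758.8 TPM in well H8 and below 1 in the other 10 cells. Its log2 fold of 3.30 was -2.70 without well H8.

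Genes of co-signalling and immunosuppression had a median of 0.39, with 2 of 10 higher and 1 lower. Cd80, the costimulatory ligand, was detected in 1 of 11 (9.09%, exact 95% interval 0.23 to 41.3%) and 8 of 89 cells (8.99%, 3.96 to 16.9%), and Cd274, which encodes PD-L1, in 2 of 11 (18.2%, 2.28 to 51.8%) and 3 of 89 (3.37%, 0.701 to 9.54%). With intervals this wide no difference in either was detectable. Lgals9, the galectin-9 gene, was detected in 11 of 11 and 63 of 89 cells at 65.9 and 38.4 TPM.

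Differentiation genes were lower in the mean, though not in the typical cell against every group. Of 20 suprabasal and cornified envelope genes considered (24 listed), 9 were at least 2-fold lower in the CD44+ gate and 0 higher, with a median of -0.87. Against the cells with Xist 6 were lower (median -0.49), against those with Y-linked transcripts 9 (median -0.69), and 4 were lower than both. Krt1, the first suprabasal keratin, at chr15:101845426-101850794, ran from 0 to 812.3 TPM in the CD44+ cells, with a median of 0.45. It had a median of 0.94 in CD44-negative cells with Xist and of 47.01 in those with Y-linked transcripts, all 43 of which were at a TPM of at least 1. The mean was 112.1 TPM, against 356.4 and 748.9 in these groups, and the log2 fold over all CD44-negative cells was -2.25, and -3.64 without the cell of well G8. Taken as a level per cell, the mean log2(TPM + 1) of the list had a median of 2.13 in the CD44+ cells, 2.19 in the cells with Xist and 3.17 in those with Y-linked transcripts. Of these, 22 of 42 and 39 of 43 passed the CD44+ median. The typical CD44+ cell was thus at the level of the cells with Xist and below that of the cells with Y-linked transcripts.

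Sprr1b, a cornified envelope precursor, was detected in 4 of 11 cells (36.4%, exact 95% interval 10.9 to 69.2%) and 68 of 89 (76.4%, 66.2 to 84.8%). It averaged 28.5 against 122.5 TPM, with like log2 folds against cells with Xist (-2.03) and with Y-linked transcripts (-2.12), although 23 of 42 of the former and 42 of 43 of the latter had it. The log2 fold of -2.07 was -3.30 without the cell of wells H2 and H10. Calm4, a skin calmodulin-like gene, averaged 87.3 TPM against 142.7 in cells with Xist and 483.3 in cells with Y-linked transcripts. Sbsn, which encodes suprabasin, averaged 18.6 against 50.9 TPM and Krt10, the partner of Krt1, 45.3 against 119.6, although 53.6 in the cells with Xist. The log2 fold of Krt10, -1.38, was -2.88 without the cell of well G8. Basal genes were less often 2-fold apart. Of 17, 0 were higher and 1 was lower, with a median of -0.35. Against the cells with Xist, 1 was lower, but the median of -0.56 was below the -0.49 of the suprabasal list. Against those with Y-linked transcripts the basal median was -0.19, with 2 higher and 1 lower. None of 14 desmosome and adherens junction genes was 2-fold lower than in all CD44-negative cells.

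Stress keratins and alarmins were lower in 6 of 10 considered (16 listed) and higher in 1, with a median of -1.05 (-1.66 without the cell of well G12). By ratios of means the cells with Xist were farther away, at -1.34 with 8 lower, than those with Y-linked transcripts, at -0.46 with 4 lower. The level per cell, given last, had the other order. S100a8, a calprotectin subunit at chr3:90668978-90670035, was detected in 2 of 11 CD44+ cells (18.2%, 2.28 to 51.8%) and 49 of 89 others (55.1%, 44.1 to 65.6%), at means of 20.1 and 134.2 TPM. Its log2 folds against the cells with Xist and with Y-linked transcripts were -2.49 and -2.51, but these parts were not alike. S100a8 was detected in 33.3% of the cells with Xist (median 0, highest 3906 TPM). It was detected in 76.7% of those with Y-linked transcripts (median 19.45 TPM). The differences in mean log2(TPM + 1) were -0.75 and -3.21. The CD44+ median was 0 too, so the typical cell did not differ from that with Xist. Most of the CD44+ mean of S100a8 came from well G8, at 201.8 TPM, and the log2 fold of -2.68 was -5.55 without it. Krt16 ran from 0 to 3560 TPM in the CD44+ cells (median 28.4), with medians of 252.6 in cells with Xist and 106.6 in those with Y-linked transcripts. Its log2 fold of -1.07 was -2.25 without the cell of well G12. Krt6b averaged 298.6 TPM against 810.4 and 361.5 in these groups, so its log2 fold was -1.44 against the former and -0.27 against the latter. Over all cells it was -1.03, and -1.91 without the cell of wells H2 and H10. Il33, an alarmin cytokine, averaged 2.03 against 10.6 TPM and was detected in 2 of 11 and 32 of 89 cells. Its log2 fold of -1.93 was -3.31 without the cell of well G10. As a level per cell, the list had a median of 2.66 in the CD44+ cells, 3.37 in the cells with Xist and 3.63 in those with Y-linked transcripts. The CD44+ median was passed by 27 of 42 cells with Xist and 41 of 43 with Y-linked transcripts.

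**Figure D3:**
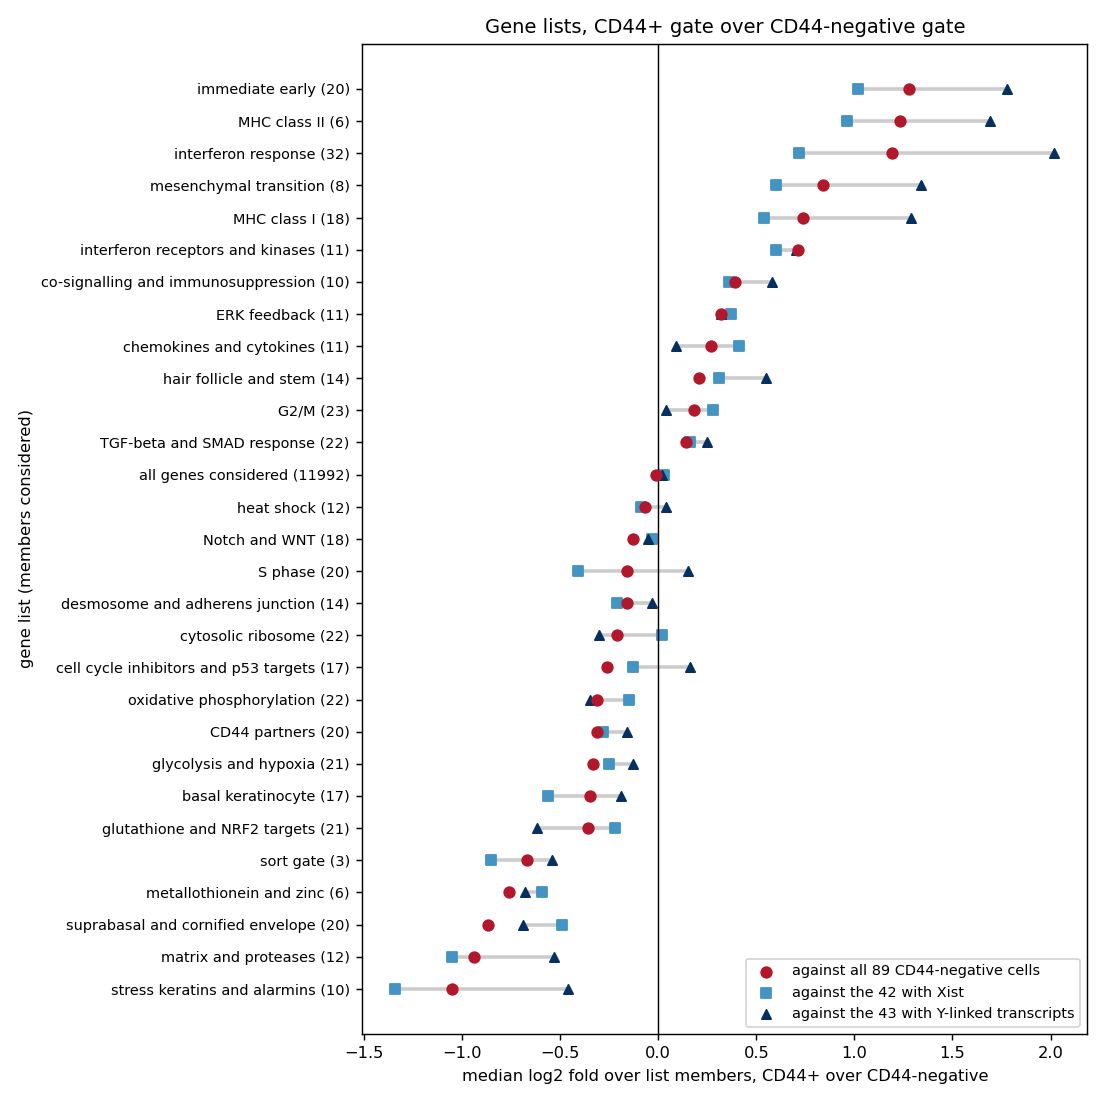
Median log2 fold (CD44+ over CD44-negative, mean TPM plus 1) over the members of each gene list, with the number of members considered in brackets; circles are against all 89 CD44-negative cells, squares against the 42 with Xist and triangles against the 43 with Y-linked transcripts. Interferon response spans 0.72 to 2.02, and suprabasal and stress lists lie below 0 under all 3.

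Among matrix and protease genes 6 of 12 considered were lower and 2 higher, with a median of -0.94 (-1.05 against the cells with Xist, -0.53 against those with Y-linked transcripts). Plau, the urokinase gene, averaged 17.9 against 37.8 TPM and was detected in 7 of 11 and 78 of 89 cells, and Sparc, a matrix glycoprotein, averaged 13.98 against 31.8. Both means rested on well H8, without which the log2 fold of Plau went from -1.04 to -2.51 and that of Sparc from -1.13 to -1.73. The stromelysin gene Mmp3 was listed at 0 in all 11 CD44+ cells and was at a TPM of at least 1 in 10 of 89 others. Timp3, a metalloproteinase inhibitor, averaged 14.3 against 2.16 TPM, but its log2 fold of 2.28 was 0.71 without the cell of well G5.

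Genes of glutathione metabolism and NRF2 had a median of -0.36, with 5 of 21 lower and 0 higher. Gpx2, an epithelial glutathione peroxidase, averaged 1.81 against 31.6 TPM, 12.1 in cells with Xist and 40.9 in cells with Y-linked transcripts. It was detected in 3 of 11 and 49 of 89 cells, and its log2 fold of -3.54 was -4.16 without the cell of well G11. Gsta4, a glutathione transferase, averaged 25.6 against 94.5 TPM with log2 folds of -1.38 and -2.18 against the same groups. Over all cells it was -1.85, and -2.70 without the cell of well G12.

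Response genes of TGF-beta and SMAD, the pathway the absent reporter reads, had a median of 0.14, with 2 of 22 higher and 1 lower. The median was -0.16 without wells G7, G10 and H8. Both higher genes, named after their values were seen, rested on well G7: without it the log2 fold of Ltbp3 went from 1.58 to -0.28 and that of Tgfbr3 from 1.13 to -1.53. The lower gene was Thbs1, which encodes thrombospondin-1, at 2.99 against 34.5 TPM, detected in 5 of 11 and 50 of 89 cells, with log2 folds of -2.70 and -3.44 against the cells with Xist and with Y-linked transcripts. Bhlhe40, a transcriptional repressor gene, was detected in 11 of 11 and 82 of 89 cells at 109.1 and 58.9 TPM. Wnt5a, a non-canonical WNT ligand, averaged 5.60 against 22.1 TPM (log2 fold -1.81, and -2.49 without the cell of well G12), while the Notch and WNT list had a median of -0.13 with 0 of 18 higher and 1 lower.

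Hair follicle and stem cell genes were higher in 5 of 14 and lower in 1, with a median of 0.21 that was -0.38 without wells G7, G10 and H8. Gli2, a Hedgehog pathway factor, averaged 11.7 against 2.19 TPM and was detected in 6 of 11 and 30 of 89 cells, with a log2 fold of 1.99 that was 1.38 without the cell of well G1. Lgr5, a stem cell receptor gene, was at 117.9 TPM in well G7 and below 1 in the other 10 cells. A list for mesenchymal transition, which also holds the simple epithelial keratins Krt8 and Krt18, was higher in 4 of 8. Its median of 0.84 was -1.37 without wells G7, G10 and H8. Of its genes, Vim and Krt8 were at a TPM of at least 1 in well H8 alone. Krt18 was detected in 2 cells, with a log2 fold of 2.63 that was 0.21 without well H8.

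Proliferation differed little. G2/M genes had a median of 0.18 (-0.21 without well H8), with 2 of 23 higher and 1 lower, and S phase genes of -0.16, with 1 of 20 higher. Mki67, the proliferation marker, was detected in 10 of 11 and 45 of 89 cells, but its means were 11 and 9.49 TPM. Of 22 cytosolic ribosome genes none was 2-fold apart, and of 22 oxidative phosphorylation genes 1 was lower. That gene, Ndufs1, a complex I subunit, averaged 10.4 against 24.8 TPM and was detected in 6 of 11 and 82 of 89 cells, with a log2 fold of -1.18 that was -1.98 without the cell of well G8.

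The 15 genes with the largest differences toward the CD44-negative gate were mt-Co2, Krt6b, Krt1, Gyltl1b, Calm4, Ces2g, Sprr1b, S100a8, Tmem63a, Ndufs1, Glrx, Dera, Abcb8, Exoc1 and Fam25c. Of these, 13 were at least 2-fold lower than each part of the CD44-negative gate, the exceptions being Krt6b and Calm4. Several were detected in nearly all CD44-negative cells, and in similar shares of those with Xist and with Y-linked transcripts. Ces2g, a carboxylesterase gene at chr8:104961718-104969537, was detected in 7 of 11 and 83 of 89 cells at 10.47 and 37.5 TPM. Tmem63a, an ion channel gene, was detected in 5 and 82 cells at 11.8 and 26.8 TPM, and Glrx, the glutaredoxin gene, averaged 11.4 against 46.2. The log2 fold of Glrx, -1.93, was -2.57 without the cell of wells H2 and H10, which also took Fam25c from -1.90 to -2.50. Abcb8, a mitochondrial transporter gene, went from -2.14 to -3.30 without the cell of well H8. Exoc1, an exocyst subunit, was detected in 3 of 11 (27.3%, 6.02 to 61%) and 70 of 89 cells (78.7%, 68.7 to 86.6%) at 2.01 and 11.9 TPM.

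mt-Co2, the mitochondrial cytochrome oxidase subunit II gene, headed this group but did not repeat. It was listed at 0 in most CD44+ libraries, with 3 of 11 cells at a TPM of at least 1, and in the second libraries of the same cells 7 were. In the CD44-negative gate 55 of 89 were at a TPM of at least 1. The log2 fold of -2.18 was -0.28 with the second libraries and -2.80 without the cell of well G5. No difference of mt-Co2 between the gates is therefore reported.

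The second libraries gave the technical spread of the CD44+ values. All 30 named genes kept their direction with them and 26 stayed at least 2-fold apart. Those that did not were mt-Co2, Gyltl1b, Krt6b (from -1.03 to -0.86) and Clca3a2 (from 1.01 to 0.88). The median absolute change in log2 fold was 0.12, and the largest, for mt-Co2, was 1.90. Gyltl1b, a glycosyltransferase gene, went from -1.77 to -0.93, and Dera, a deoxyribose-phosphate aldolase gene, from -2.05 to -1.10. Abcb8 went from -2.14 to -1.52, H2-Q5 from 2.73 to 2.30 and Exoc1 from -2.10 to -1.71. Without its strongest CD44+ cell, Gyltl1b was at -2.71 and Dera at -2.65. Ifi27l2a went from 2.32 to 2.14 and S100a8 from -2.68 to -2.67. List medians moved little as well, from 1.19 to 1.31 for interferon response, 1.28 to 1.29 for immediate early and -0.87 to -0.74 for suprabasal genes. This repeats the sequencing of the same cells, and not the sampling of cells or animals.

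**Figure D4:**
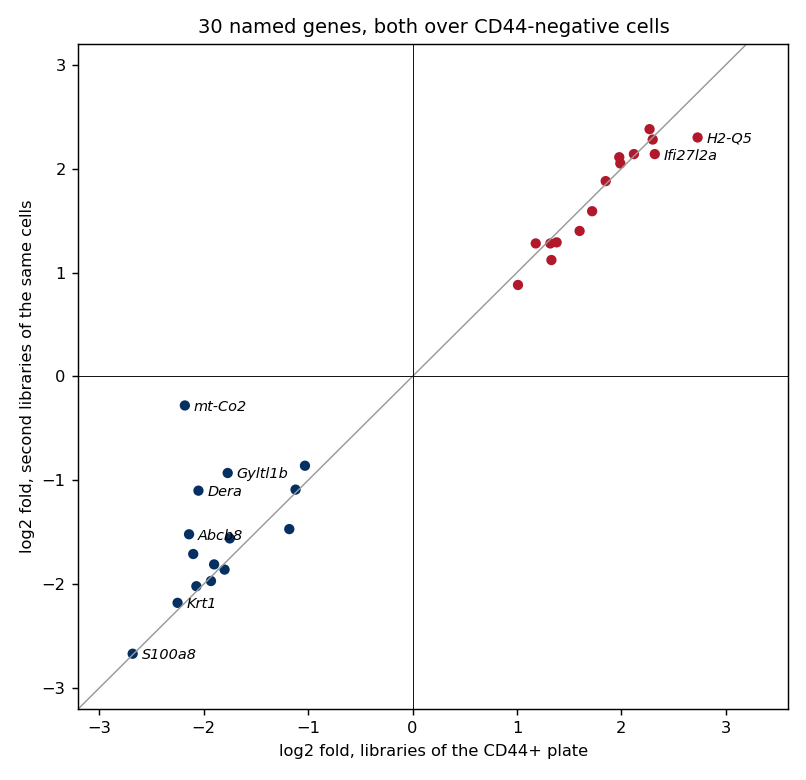
log2 fold over the CD44-negative cells of 30 named genes, from the CD44+ plate (x axis) and from second libraries of the same cells (y axis); points are genes, red higher and blue lower in the CD44+ gate, and the diagonal marks equal values. The point farthest from the diagonal is mt-Co2 (-2.18 and -0.28), followed by Dera, Gyltl1b and Abcb8.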

How the data were processed

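Single-cell Smart-seq2 libraries (Nextera XT kit, per the labels' protocols, a method that does not mark strand) of the CD44+ reporter-negative and CD44-negative gates were analysed. The deposited values were TPM per gene and library, made by the authors. Bowtie2 2.2.9, RSEM 1.2.30 and mm10 are named, per the submitters' processing notes. Read depth cannot be read from TPM, so the number of detected genes was used in its place. A set of 8 rows treated as ribosomal took medians of 75.1% and 72.5% of TPM and was left out of the genes considered. It includes the protein-coding gene Lars2. The table held 46517 gene rows and 92 spike-in rows, and 458 per-library columns were not used.

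Libraries of 2000 or more genes were kept, and pairs with r of log2(TPM + 1) of at least 0.88, or mutual best matches by 0.05, were taken as 1 cell, searched over 299 libraries. Gene coordinates are on mm10. Folds were ratios of mean TPM plus 1. Named genes were the 15 largest differences in mean log2(TPM + 1) in each direction with a mean TPM of at least 5 and detection in at least 50% of the cells of the higher gate and a fold of at least 2, without ribosomal, predicted, Xist and Y-linked genes, plus up to 6 members per list by the size of that difference, the cell type markers, the sort and rule genes, Cd80 and Cd274. The members and all 28 lists and 11 marker lists were chosen with earlier results of these data known. Genes without a place in any of these rules are named as such. The computation was checked on simulated data. Alternatives changed the pseudocount, filters, cell rules, scaling, groups and libraries. Python 3.11.15, pandas 2.3.3 and scipy 1.17.1 were used.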

Additional observations from a re-analysis of the deposited data

How the results depend on the processing

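The shares of genes called, the list medians and the folds of the 30 named genes were recomputed under 28 alternatives, of which the splits by plate row and the removal of wells G7, G10 and H8 were added after seeing the data. All 30 named genes kept their direction under all of them. They were picked for large differences in these same cells, which the alternatives largely reuse, so a kept direction was close to given. Of 840 fold values, 735 moved by no more than 1.5 times and the rest moved further. The 2.65% of genes higher and 1.92% lower were 1.49% and 0.78% with a pseudocount of 5, and 6.49% and 4.15% with TPM rescaled without ribosomal rows and spike-ins. By the difference in mean log2(TPM + 1), 3.87% were lower, and the medians were 1.51 for MHC class I and 2.05 for immediate early genes. Against the cells with Y-linked transcripts 4.14% were higher, with medians of 2.02 for interferon and -0.46 for stress genes, and without the keratinocyte rule 4.61%. Against rows E to H, 2.89% were lower and these medians were 2.04 and -0.44. Leaving out 1 CD44+ cell at a time gave 2.12% to 3.50% higher and 1.68% to 2.83% lower. The medians then ran from 1.15 to 1.31 for interferon, 0.70 to 0.83 for MHC class I, 0.34 to 1.36 for MHC class II, 1.15 to 1.40 for immediate early, -1.36 to -0.77 for suprabasal and -1.66 to -0.91 for stress genes. The MHC class II median turned to -0.45 among libraries of 6000 to 8000 genes (7 and 67 cells) and to -1.61 without wells G7, G10 and H8. The median of all genes ran from -0.08 to 0.11, the last without the keratinocyte rule. In these values the cause of a move was not tested. No paired analysis was possible because the result comes from no test. Detection shares, levels per cell and motif counts were not recomputed. With 11 CD44+ cells, a share of 0 allows up to 28.5%.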

Other observations

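Of the 15 CD44+ libraries with at least 2000 genes, 3 were left out by the marker rule. Those of wells G3 and G6 held Rgs5, a pericyte gene, at 1468 and 1098 TPM, Col3a1 at 257.1 and 468.6 and Krt14 at 0 and 0.69. The library of well H1 held Sox10, a neural crest factor, at 181.1 and Vim at 1751 TPM, with Krt14 at 0. Cd44 was at 22.1, 99.8 and 73.2 TPM in the 3 libraries and Itga6 at 15.8, 44.2 and 38.9, so both sort genes were transcribed in them too. The CD44-negative libraries left out, of wells E3 and F8, passed the Dsp limit and were left out on Col3a1 alone, at 80.2 and 14.4 TPM.

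Xist had a median of 12.4 TPM in the CD44+ cells, and a mean of 21.9 against 13.7 in the CD44-negative cells with Xist. The 2 cells of lowest keratinocyte sum, in wells G7 and G10, had the highest Xist among the CD44+ members, 79.5 and 46.8 TPM.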
